A study of Mus musculus with 12 samples.

Results

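Phase II conjugation is the step of liver metabolism in which a polar group is joined to a drug, hormone, bile pigment or reactive product so that it can leave the cell. The genes described here are the UDP-glucuronosyltransferases (UGT), the cytosolic sulfotransferases (SULT) and the soluble glutathione S-transferases (GST), taken from the deposited table by symbol: Ugt1, Ugt2 or Ugt3, Sult with a number, and the alpha, kappa, mu, omega, pi, theta and zeta classes of Gst. Of 17432 genes in the table, 58 matched. A mean estimated count of at least 10 over the 12 livers was reached by 44 of them, 16 UGT, 8 SULT and 20 GST genes, and these are described below. The other 14 were near or at 0. The livers came from male wild-type C57BL/6J mice (the labels' WT genotype) aged 8 to 10 weeks. After a synchronized refeeding period, 6 mice ran on a treadmill at 14 m/min for 3 hours (Exercise) and 6 stayed sedentary (Sedentary). No group carried an engineered allele or a drug, and each library was made from whole liver, so that hepatocytes and the other cells of the organ were measured together.

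UGT enzymes sit in the membrane of the endoplasmic reticulum and transfer glucuronic acid from UDP-glucuronic acid. SULT enzymes work in the cytosol and use the activated sulfate donor PAPS. GST enzymes join the tripeptide glutathione to electrophiles, and the conjugates are then trimmed and acetylated to mercapturates. Hepatocytes are the main site of all these reactions, and nuclear receptors such as CAR and PXR and the antioxidant factor NRF2 are known to act on many of the genes.

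Total estimated counts ran from 18971992 to 19324461 in Sedentary and from 18745379 to 19001010 in Exercise libraries. Of 12344 genes past the low-count filter, 5229 (42.4%) passed an adjusted p of 0.05 (edgeR, quasi-likelihood F test, adjusted over all genes by Benjamini-Hochberg). This is the background against which each count below is read, with 21.1% of genes higher and 21.3% lower after exercise, 13.0% called with a change of at least 1.5-fold (an absolute log2 fold change of at least 0.58), and 22.3% with no overlap between the livers of the groups. Hepatocyte markers were abundant in every library. Alb, the gene of serum albumin, was at 89862 to 123430 CPM (counts scaled to a common library size with TMM factors) in Sedentary livers. In Exercise livers it was at 108290 to 127250 CPM. Of 10 tested hepatocyte markers, 2 were higher after exercise and 0 lower. These were Alb, by a log2 fold change of 0.24, and Hnf4a, by 0.59. Of 25 tested markers of other liver cells, 2 were higher (Lyve1 and Pecam1, of endothelium) and 3 lower (Kdr, also of endothelium, Lrat and Des). The endothelial markers Stab2 and Clec4g were not called. Markers of other liver cells summed to 483 to 594 CPM in Sedentary and 475 to 651 CPM in Exercise livers. Of 10 tested markers of blood, gut, pancreas, kidney and muscle, 4 were lower, all of heart muscle (Myh6, Myh7, Actc1 and Tnnt2), and the list summed to 453 to 734 CPM in Sedentary and 447 to 553 CPM in Exercise livers. Of the 18 markers on the list, 15 were in the deposited table, and none of these was at 0 in every liver. Myh6, a myosin heavy chain of heart muscle, was at 4.29 to 10.6 CPM in all Sedentary livers, at 5.80 CPM in Exercise replicate 1 and at 0 in the other 5 Exercise livers. The part of these heart transcripts in the results was not tested.

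Levels of different genes were compared per transcript length, as FPKM, and 3 GST genes stood at the top of the 44. Gstp1, of the pi class, had the highest mean at 3096 FPKM, followed by Gstm1 of the mu class at 1765 FPKM and Gsta3 of the alpha class at 1740 FPKM. Gstz1, which is also an isomerase of tyrosine breakdown, followed at 453 FPKM and Sult1a1, the main phenol sulfotransferase, at 419 FPKM. The most abundant UGT genes were Ugt2b5 at 336 FPKM and Ugt2b36 at 302 FPKM. In a Sedentary liver, Gstp1 alone made up a median of 35.6% of the summed GST FPKM (range 30.9% to 45.2%), and in an Exercise liver 38.7% (range 31.9% to 40.6%). Sult1a1 made up 58.7% of the summed SULT FPKM in the median Sedentary liver and 61.0% in the median Exercise liver. At the other end, Sult1e1, Ugt2b38, Ugt1a10 and Ugt2a1 had mean levels of 0.763, 0.747, 0.543 and 0.303 FPKM.

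**Figure D1:**
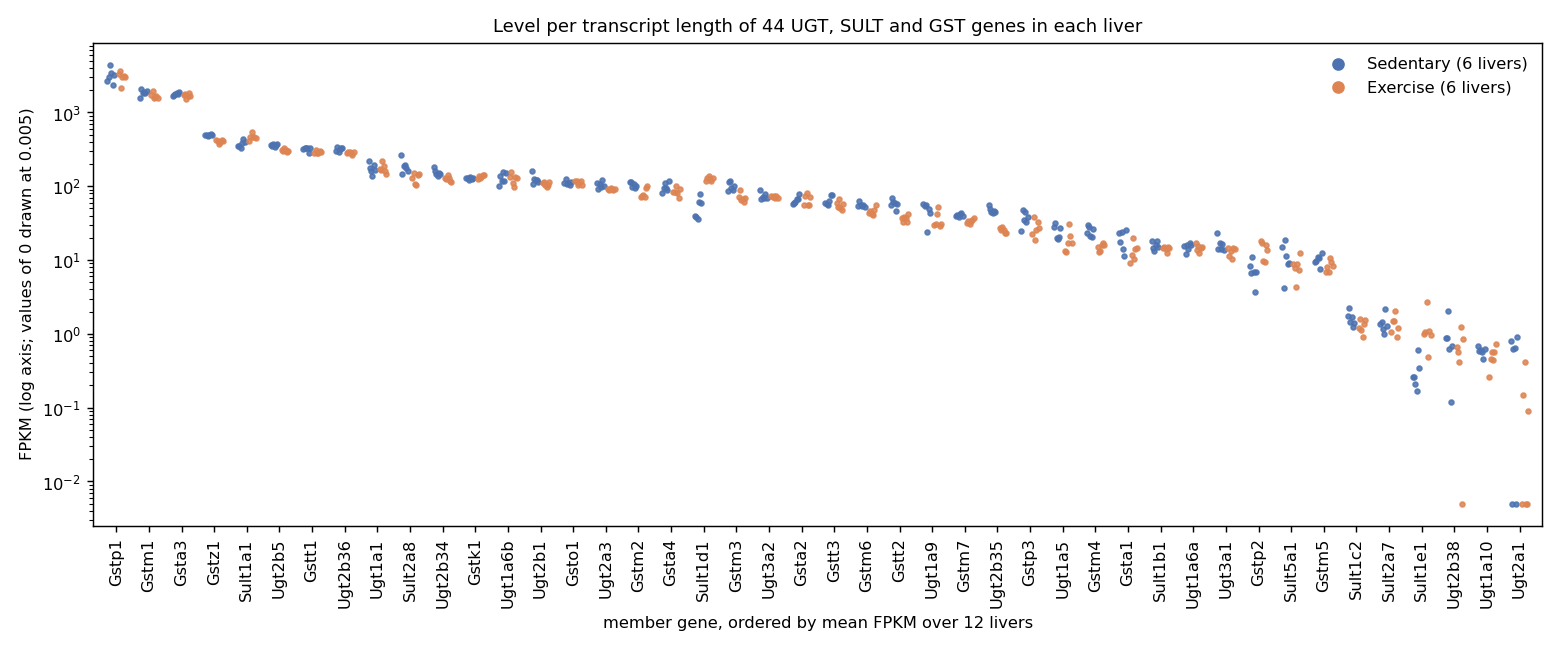
FPKM on a log axis of the 44 described genes in each of 12 livers, 1 point a liver, ordered by the mean over all livers. Gstp1, Gstm1 and Gsta3 lie highest in both groups, and Sult1d1 is a gene whose Exercise livers all lie above its Sedentary livers.

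After exercise, 14 of the 43 members tested changed (32.6%, against 42.4% of all genes tested), 5 higher (11.6%, against 21.1%) and 9 lower (20.9%, against 21.3%). The median log2 fold change (Exercise minus Sedentary) of the members was -0.12, against -0.0028 over all genes tested. The families differed in their counts. Of 15 UGT genes tested 1 was called, lower, a count that rose to 3 with upper-quartile factors and to 6 with library size alone or FPKM. Of 8 SULT genes 3 were higher and 1 lower, and of 20 GST genes 2 were higher and 7 lower. Changes of at least 1.5-fold were found in 5 members (11.6%, against 13.0%), and the groups did not overlap in 6 of 43 (against 22.3%). With scaling by library size alone, the split was 4 higher and 14 lower. Over all 12344 genes tested, that scaling called 1767 higher and 3735 lower, against 2603 and 2626 with TMM factors. In whole liver, fewer cells of a type and less RNA per cell cannot be told apart.

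**Figure D2:**
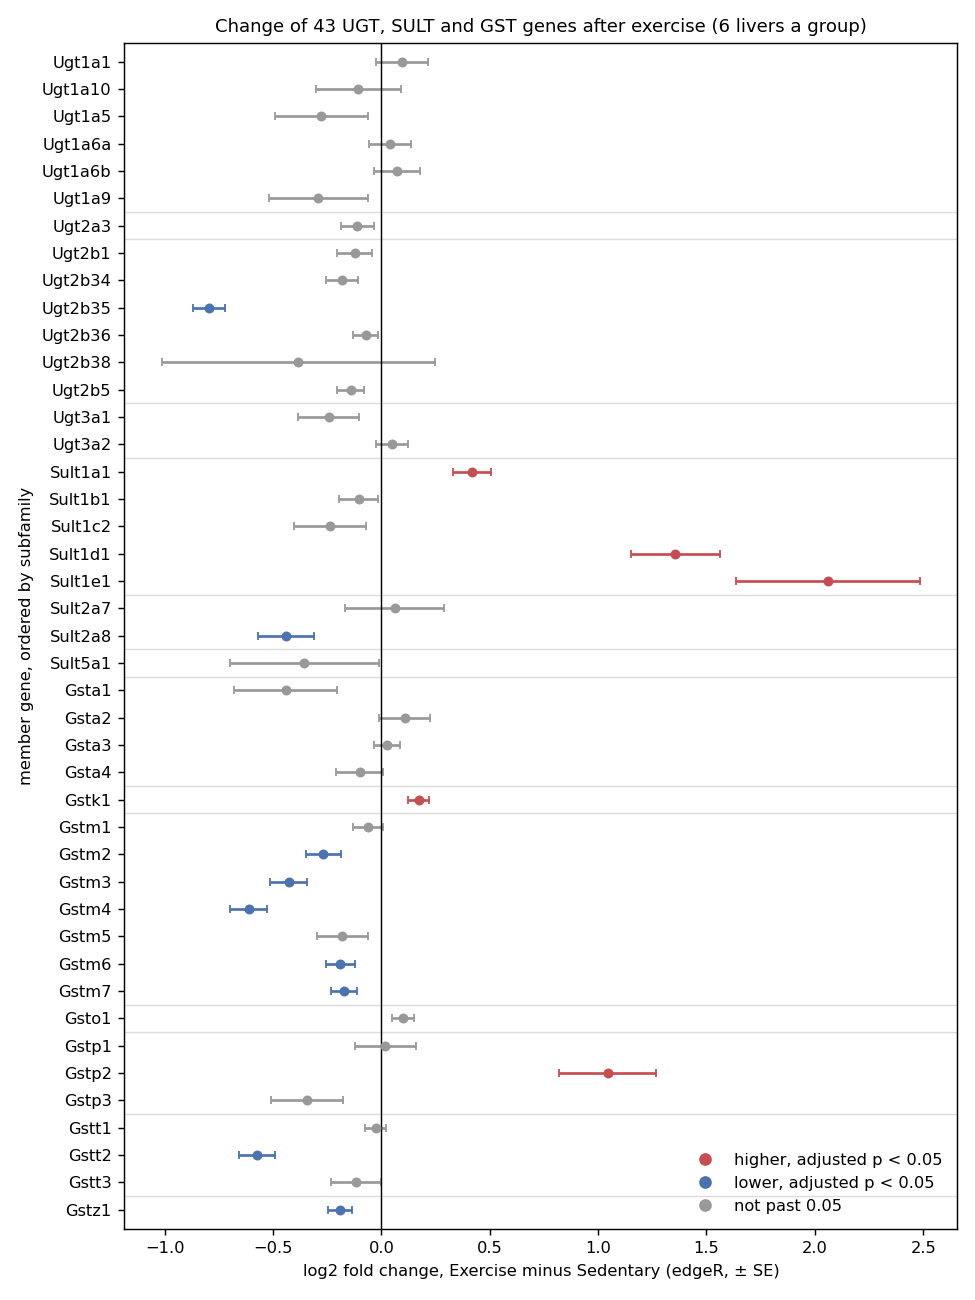
Log2 fold change (Exercise minus Sedentary) of each of the 43 members tested, with the standard error as bars, ordered by subfamily. Red points passed an adjusted p of 0.05 as higher, blue points as lower. The 3 largest rises are Sult1e1, Sult1d1 and Gstp2, and the largest fall is Ugt2b35.

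The sulfotransferases held the largest rises. Sult1d1 (gene ID 53315, chromosome 5 of GRCm38, 87554650 to 87569006), which sulfates dopamine and other catechols, was at 83.5, 109 and 193 CPM in the lowest, median and highest Sedentary liver and at 282, 302 and 351 CPM in the corresponding Exercise livers. Every Exercise liver lay above every Sedentary liver. The log2 fold change was 1.36 (SE 0.21, adjusted p = 0.000301 from edgeR's test), a 2.56-fold rise, and the two-sided exact permutation test over livers gave p = 0.00216, the smallest that 6 against 6 allow. Its share of the summed SULT FPKM was 5.71% to 11.1% in Sedentary and 15.7% to 17.3% in Exercise livers. Its spread among Exercise livers was small, with 307 ± 24.4 CPM (SD, n = 6) against 120 ± 43.6 CPM (SD, n = 6) in Sedentary livers. Sedentary replicates 1, 2 and 3 were at 87.1, 83.5 and 84.2 CPM, and replicates 4, 5 and 6 at 140, 193 and 131 CPM.

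Sult1e1 (gene ID 20860, chromosome 5, 87575968 to 87591611), the estrogen sulfotransferase, is the next gene to Sult1d1 on the chromosome and rose with it, from a far lower level. Its estimated counts were only 4 to 14 in Sedentary and 11 to 62 in Exercise livers. In CPM these were 0.202, 0.293 and 0.761 (lowest, median and highest Sedentary liver) and 0.606, 1.26 and 3.59 (Exercise). The groups overlapped by 1 liver on each side, and Sedentary replicate 5 and Exercise replicate 3 stood well above the rest of their groups. The fitted log2 fold change was 2.06 (SE 0.42, adjusted p = 0.00108 from edgeR's test; exact permutation p = 0.00433). Without Exercise replicate 3 it was 1.63 and still called. The third gene of this stretch, Sult1b1, a thyroid hormone sulfotransferase, had a log2 fold change of -0.11 (SE 0.09) and was not called (adjusted p = 0.376 from edgeR's test).

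The 250 bases before the start of the 5 members that were called with at least 1.5-fold change are printed here from RefSeq (GRCm38.p6, the first start listed for each gene), 5′ to 3′ on the strand of the gene, because the neighbours Sult1d1 and Sult1e1 moved together. Capitals mark matches to a set of short motifs, searched on both strands. Sult1e1 is at chr5:87591612-87591861, Sult1d1 at chr5:87569007-87569256, Gstp2 at chr19:4042222-4042471 and Gstm4 at chr3:108044860-108045109, all on the minus strand, and Ugt2b35 is at chr5:87000610-87000859 on the plus strand. The start listed for Gstm4 lies inside the span given for that gene below, and the other windows end at the gene's edge.
Sult1e1: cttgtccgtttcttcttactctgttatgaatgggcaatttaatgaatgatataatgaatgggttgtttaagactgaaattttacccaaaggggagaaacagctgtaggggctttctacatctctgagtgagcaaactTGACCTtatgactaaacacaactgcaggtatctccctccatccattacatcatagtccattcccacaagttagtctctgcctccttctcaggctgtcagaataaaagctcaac
Sult1d1: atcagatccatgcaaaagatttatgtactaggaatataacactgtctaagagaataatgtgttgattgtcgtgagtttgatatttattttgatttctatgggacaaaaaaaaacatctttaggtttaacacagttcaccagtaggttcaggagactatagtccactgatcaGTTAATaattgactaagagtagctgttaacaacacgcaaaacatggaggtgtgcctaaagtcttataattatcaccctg
Gstp2: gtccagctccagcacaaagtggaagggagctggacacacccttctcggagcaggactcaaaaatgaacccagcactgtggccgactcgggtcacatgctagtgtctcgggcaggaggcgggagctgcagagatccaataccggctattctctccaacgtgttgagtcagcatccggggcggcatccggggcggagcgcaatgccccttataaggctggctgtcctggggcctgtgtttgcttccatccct
Ugt2b35: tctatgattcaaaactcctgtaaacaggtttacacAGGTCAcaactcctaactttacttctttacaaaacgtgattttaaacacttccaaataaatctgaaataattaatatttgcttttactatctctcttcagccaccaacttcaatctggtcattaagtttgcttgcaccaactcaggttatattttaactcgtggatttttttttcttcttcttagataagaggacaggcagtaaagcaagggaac
Gstm4: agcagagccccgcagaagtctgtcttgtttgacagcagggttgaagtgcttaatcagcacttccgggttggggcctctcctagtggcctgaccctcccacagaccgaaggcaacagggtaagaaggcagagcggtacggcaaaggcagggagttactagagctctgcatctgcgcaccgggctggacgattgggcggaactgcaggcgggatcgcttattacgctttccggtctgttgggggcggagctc
The motif letters were TGACNNNGC (core of the antioxidant response element), AGAACA (glucocorticoid receptor hexamer), AGGTCA (nuclear receptor hexamer), TTGCNNAA (C/EBP), GTTAAT (HNF1 hexamer) and CACGTG (E-box). None contains another, but the reverse strand of AGGTCA begins with the first letters of the antioxidant core and could overlap it. Sult1e1 held 1 nuclear receptor hexamer on the opposite strand, beginning 113 bases before the start, and Ugt2b35 held 1 on its own strand, beginning 215 bases before it. Sult1d1 held 1 HNF1 hexamer beginning 79 bases before the start. Gstp2 and Gstm4 held none of these letters in this window. Of 13777 genes of the table with a promoter in the reference, 11.5% held the antioxidant core, 11.8% each of the receptor hexamers, 8.36% the C/EBP letters, 4.74% the HNF1 hexamer and 7.56% the E-box. Among the 50 members matched, 11 held the HNF1 hexamer, 10 the nuclear receptor hexamer, 9 the C/EBP letters, 8 the glucocorticoid receptor hexamer, 2 the antioxidant core and 0 the E-box.

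Sult1a1 (gene ID 20887, chromosome 7, 126672865 to 126690443) was the third sulfotransferase to rise. It was at 396, 434 and 551 CPM in the lowest, median and highest Sedentary liver and at 530, 579 and 724 CPM in Exercise livers. The groups overlapped only at the edge, where the highest Sedentary liver was above the lowest Exercise liver. This was a log2 fold change of 0.42 (SE 0.09, adjusted p = 0.000907 from edgeR's test; exact permutation p = 0.00433). Sgf29 lies on the opposite strand over part of this gene, and strand use in the counting is not given in the sources used here. Summed over its 5 genes, the Sult1 subfamily rose by a log2 fold change of 0.65 (SE 0.10, adjusted p = 6.7e-05 from edgeR's test), from 501 to 773 CPM in Sedentary to 845 to 1102 CPM in Exercise livers, with no overlap.

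The sulfotransferase that fell was Sult2a8 (gene ID 76971, chromosome 7, 14410686 to 14446780), a hydroxysteroid-type enzyme that sulfates bile acids. It was at 281, 378 and 515 CPM in the lowest, median and highest Sedentary liver and at 223, 287 and 316 CPM in Exercise livers. The groups overlapped. The log2 fold change was -0.44 (SE 0.13, adjusted p = 0.0145 from edgeR's test; exact permutation p = 0.0152). The call was lost with the replicate number as a block (log2 fold change -0.43, adjusted p = 0.0543 from edgeR's test) and when Exercise replicates 1 and 3 were left out together (log2 fold change -0.40, adjusted p = 0.0723 from edgeR's test). Its share of the summed SULT FPKM was 24.4% to 38.2% in Sedentary and 13.5% to 19.7% in Exercise livers, without overlap. That share also depends on the members that rose, as the summed SULT FPKM had a median of 659 in Sedentary and 754 in Exercise livers. Sult1c2, Sult2a7 and Sult5a1 were measured at mean levels of 1.46, 1.38 and 9.75 FPKM and were not called. Sult5a1 ranged from 4.20 to 20.1 CPM among the Sedentary livers alone.

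Among the glucuronosyltransferases, Ugt2b35 (gene ID 243085, chromosome 5, 87000860 to 87013274) was the only member called. It was at 139, 148 and 173 CPM in the lowest, median and highest Sedentary liver and at 77.0, 86.1 and 102 CPM in Exercise livers. Every Exercise liver lay below every Sedentary liver. The fitted log2 fold change was -0.79 (SE 0.07, adjusted p = 3.02e-07 from edgeR's test; exact permutation p = 0.00216). It ranged from -0.84 to -0.75 when each liver was left out in turn. Ugt2b35 lies in a run of Ugt2b genes on chromosome 5 that spans 534 kb and is the only one of the 7 on the plus strand. Its neighbours Ugt2b1 and Ugt2b36 had log2 fold changes of -0.12 and -0.07 and were not called, but with library size alone both were called lower, at -0.22 and -0.17.

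The other Ugt2b genes, which conjugate steroids, bile acids and drugs, all had negative values that did not pass with TMM scaling. Ugt2b34 was nearest, at -0.18 (SE 0.07, adjusted p = 0.0579 from edgeR's test), and Ugt2b5 was at -0.14 (SE 0.06, adjusted p = 0.0764 from edgeR's test). Both were called with upper-quartile factors, at -0.20 and -0.16, and with library size alone, at -0.28 and -0.24, as well as with FPKM. Without Exercise replicate 3 both were also called, at -0.23 and -0.18, and Ugt2b34 was also called without Sedentary replicate 4, at -0.21. Ugt2b5 shares 41.7% of its 50-base windows with other transcripts, mostly those of Ugt2b38, so that reads could be divided between these genes. Ugt2b38 had the largest spread of the members tested in both groups, with a coefficient of variation of 75.6% in Sedentary and 68.0% in Exercise livers, against a median member of 14.4% and 12.4%. Summed over 7 genes, Ugt2b fell by 0.17 on the log2 scale (SE 0.06, adjusted p = 0.0325 from edgeR's test), from 2009 to 2250 CPM in Sedentary to 1742 to 2100 CPM in Exercise livers, which overlapped. That call was lost without Sedentary replicate 1, 3 or 5 or Exercise replicate 2, 4, 5 or 6, with a log2 fold change between -0.17 and -0.14.

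None of 6 Ugt1a genes tested was called by edgeR, DESeq2 or limma-voom, and 0 had an unadjusted p under 0.05 in edgeR's test. This locus makes its enzymes from separate first exons joined to a common set of later exons, and the genes share 54.2% to 96.0% of their 50-base windows, so the estimates of single Ugt1a genes are uncertain. Ugt1a1, the bilirubin glucuronosyltransferase, was at a median of 515 CPM in Sedentary and 541 CPM in Exercise livers, a log2 fold change of 0.09 (SE 0.12). Ugt1a9, a phenol glucuronosyltransferase, was at a median of 158 CPM and 99.5 CPM, a log2 fold change of -0.29 (SE 0.23, adjusted p = 0.341 from edgeR's test). The sum of the 8 Ugt1a genes, which does not depend on how reads were divided among them, ran from 946 to 1192 CPM in Sedentary and from 1002 to 1302 CPM in Exercise livers (log2 fold change 0.02, SE 0.07). Ugt1a6b, Ugt1a6a and Ugt1a10, with mean levels of 129, 15.0 and 0.543 FPKM, were not called. Ugt1a5 had a log2 fold change of -0.28 and was called only without Exercise replicate 4, at -0.46. Ugt3a1 and Ugt3a2, which use other sugars than glucuronic acid, had log2 fold changes of -0.24 and 0.05 and were not called, nor was Ugt2a3 at -0.11. Ugt2a3 was called lower with library size alone (-0.20) and with FPKM, and Ugt3a1 with FPKM.

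Ugt2a1 and Ugt2a2 show how shared exons affect the estimates. Both share 68% of their 50-base windows with each other. In each of the 12 livers 1 of the pair was listed at 0, Ugt2a1 in 5 livers and Ugt2a2 in 7. Ugt2a1 held 38.4 counts in Sedentary replicate 1 and 0 in Sedentary replicate 2, where Ugt2a2 held 11.04. Added together, the pair held 11.04, 30.9 and 43.5 counts in the lowest, median and highest Sedentary liver and 4.06, 7.58 and 25.3 counts in Exercise livers. The groups overlapped, and the two-sided exact permutation test of the sum gave p = 0.0195. The sum was chosen after the data were seen, and neither gene alone entered edgeR's test.

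**Figure D3:**
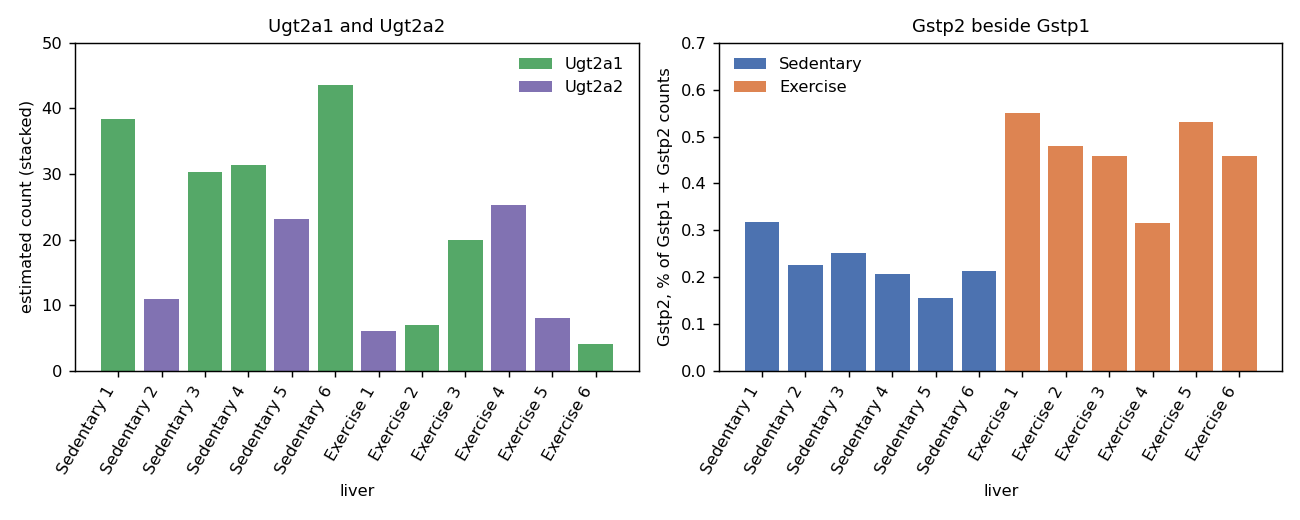
Left, estimated counts of Ugt2a1 and Ugt2a2 stacked for each liver, where every bar holds only 1 of the 2 genes. Right, the share of Gstp2 in the summed counts of Gstp1 and Gstp2 in percent, from 0.156% to 0.318% in Sedentary and from 0.316% to 0.551% in Exercise livers.

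Of the glutathione S-transferases, the most abundant did not pass the test. Gstp1 (gene ID 14870, chromosome 19, 4035411 to 4037912) was at 1687, 2026 and 3045 CPM in the lowest, median and highest Sedentary liver and at 1610, 2173 and 2474 CPM in Exercise livers. The groups lay over each other. This was a log2 fold change of 0.02 (SE 0.14, adjusted p = 0.935 from edgeR's test), and it was -0.07 with scaling by library size alone. Gstm1 (gene ID 14862, chromosome 3, 108012250 to 108017973) was at 1851, 2302 and 2393 CPM in Sedentary and 2005, 2107 and 2395 CPM in Exercise livers. Its log2 fold change was -0.06 (SE 0.07, adjusted p = 0.505 from edgeR's test). Gsta3 (gene ID 14859, chromosome 1, 21240565 to 21265575) was at 2052, 2291 and 2400 CPM in Sedentary and 2138, 2275 and 2426 CPM in Exercise livers. Its log2 fold change was 0.03 (SE 0.06, adjusted p = 0.756 from edgeR's test) and -0.07 with scaling by library size alone. For Gstm1 and Gsta3, too, the ranges of the groups overlapped over most of their width.

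Gstp2 (gene ID 14869, chromosome 19, 4040288 to 4042221), the close copy next to Gstp1, was at 2.66, 4.65 and 7.65 CPM in the lowest, median and highest Sedentary liver and at 6.83, 10.8 and 13.2 CPM in Exercise livers. The groups overlapped at the edge. The log2 fold change was 1.04 (SE 0.22, adjusted p = 0.00221 from edgeR's test; exact permutation p = 0.00649). Gstp2 shares 50.4% of its 50-base windows with other transcripts, 44.7% with Gstp1, and its counts were less than 1% of those of the pair, so its estimate is uncertain. Its share in the summed counts of the pair, chosen after the data were seen, had a median of 0.220% in Sedentary and 0.469% in Exercise livers (exact permutation p = 0.00433). Gstp3, which shares no such window, had a log2 fold change of -0.34 (SE 0.17) and was not called (adjusted p = 0.117 from edgeR's test). It was called without Sedentary replicate 1, at -0.44, and without Exercise replicate 2, also at -0.44.

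All 7 genes of the mu class, which lie in 149 kb of chromosome 3, had negative log2 fold changes. Of these, 5 were called lower (71.4%, against 21.3% of all genes tested). Gstm4 (gene ID 14865, 108030571 to 108045179) was at 29.5, 34.5 and 39.7 CPM in the lowest, median and highest Sedentary liver and at 18.5, 23.6 and 24.9 CPM in Exercise livers. Every Exercise liver lay below every Sedentary liver. The fitted log2 fold change was -0.61 (SE 0.09, adjusted p = 2.31e-05 from edgeR's test; exact permutation p = 0.00216). The others called were Gstm3 at -0.43, Gstm2 at -0.27, Gstm6 at -0.19 and Gstm7 at -0.17. Gstm3, Gstm1, Gstm6 and Gstm2 share 28.8%, 19.9%, 9.74% and 8.30% of their 50-base windows with other transcripts, so reads could be divided between them. Gstm7 shares 0.532%, and Gstm4 and Gstm5 share 0%. Gstm2 was lost when Exercise replicates 1 and 3 were left out together (-0.22, adjusted p = 0.0609 from edgeR's test). Gstm6 was lost without Sedentary replicate 2, 3 or 5 or Exercise replicate 1, 2, 3, 4 or 5 (-0.19 to -0.15), and Gstm7 without Sedentary replicate 4 or 5 or Exercise replicate 1, 2, 3, 4 or 5 (-0.17 to -0.13). Gstm5 was at -0.18 (SE 0.12) and not called. Gstm1 holds most of the counts of the class. The sum of the class, 2193 to 2777 CPM in Sedentary and 2332 to 2683 CPM in Exercise livers, did not pass (log2 fold change -0.10, SE 0.07, adjusted p = 0.261 from edgeR's test). It was called lower in 3 of 11 alternative settings, over which the log2 fold change ran from -0.19 to -0.09.

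Gstt2 (gene ID 14872, chromosome 10, 75831842 to 75837419), a theta enzyme, was at 63.9, 75.1 and 85.1 CPM in the lowest, median and highest Sedentary liver and at 42.9, 50.9 and 57.7 CPM in Exercise livers. The groups did not overlap. This was a log2 fold change of -0.57 (SE 0.08, adjusted p = 2.73e-05 from edgeR's test; exact permutation p = 0.00216), just under 1.5-fold. Gstt1, in the same cluster, was at -0.03 (SE 0.05) and had the smallest coefficient of variation of the members tested among Exercise livers, 2.11%. Gstt3 was at -0.12 and not called. The sum of the theta genes was at -0.12 (SE 0.05, adjusted p = 0.069 from edgeR's test) and not called. In 6 of 11 alternative settings that sum was called lower.

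Gstz1 (gene ID 14874, chromosome 12, 87147161 to 87164723) was at 702, 726 and 820 CPM in the lowest, median and highest Sedentary liver and at 626, 642 and 683 CPM in Exercise livers. The groups did not overlap, although the change was small. The log2 fold change was -0.19 (SE 0.05, adjusted p = 0.00903 from edgeR's test; exact permutation p = 0.00216). Pomt2 lies on the opposite strand over part of Gstz1. Gstk1 (gene ID 76263, chromosome 6, 42245935 to 42250441), the kappa enzyme of mitochondria and peroxisomes, was at 104, 108 and 114 CPM in Sedentary and 115, 124 and 128 CPM in Exercise livers. These groups did not overlap either, and the log2 fold change was 0.17 (SE 0.05, adjusted p = 0.0079 from edgeR's test), but with scaling by library size alone it was 0.08 and not called (adjusted p = 0.245 from edgeR's test). Gsto1, of the omega class, was at 0.10 (SE 0.05) and not called. The alpha genes Gsta1, Gsta2 and Gsta4 had log2 fold changes of -0.44, 0.11 and -0.10 and were not called. Gsta1 shares 89.7% of its 50-base windows with other transcripts and was called only without Exercise replicate 3, at -0.61.

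**Figure D4:**
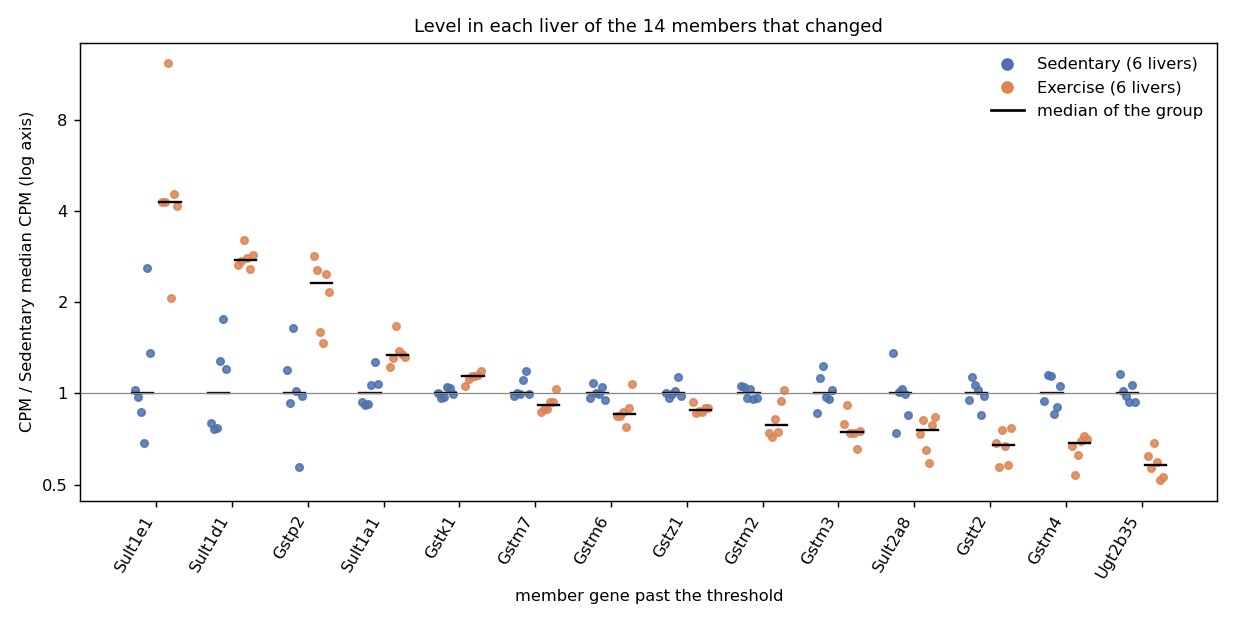
CPM of the 14 called members in each liver, divided by the median of the Sedentary livers, on a log axis with black lines at the group medians. From left to right the genes run from Sult1e1, the largest rise, to Ugt2b35, the largest fall, and the groups separate fully in Sult1d1, Gstk1, Gstz1, Gstt2, Gstm4 and Ugt2b35.

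Taken as a share of all estimated counts, with no TMM factor, the 58 members made up 1.31% to 1.43% of a Sedentary library and 1.18% to 1.35% of an Exercise library (exact permutation p = 0.00649). The UGT share was 0.345% to 0.408% in Sedentary and 0.313% to 0.349% in Exercise livers (exact permutation p = 0.00433). The SULT share was 0.0856% to 0.113% and 0.109% to 0.124% (exact permutation p = 0.0108), and the GST share 0.798% to 0.977% and 0.707% to 0.901% (exact permutation p = 0.0844). The TMM factors, which these shares leave out, were 0.970 to 1.09 in Sedentary and 0.914 to 1.01 in Exercise libraries. Without these factors, 3735 of all 12344 genes tested were called lower and 1767 higher. The median log2 fold change over all genes was then -0.098. Of 14 subfamily sums tested on TMM-scaled counts, 5 were called: Sult1 higher, Gstk higher, and Gstz, Sult2 and Ugt2b lower. Gstk and Gstz hold 1 gene each, so their sums repeat the calls of Gstk1 and Gstz1. The Sult2 sum, at a log2 fold change of -0.44, is mostly Sult2a8, which was also at -0.44.

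The supply and turnover of the cosubstrates were read from hand-written lists. Counts in this and the following lists stand beside 42.4% of all genes tested that were called, 21.1% higher and 21.3% lower. Of 6 genes tested for UDP-glucuronic acid, 2 were lower: Slc35d1, which carries it into the endoplasmic reticulum, at -0.29 and Pgm1, which interconverts glucose phosphates, at -0.24 on the log2 scale. Ugdh, the enzyme that makes UDP-glucuronic acid, was at -0.04 (SE 0.08) and not called. Of 8 genes tested for PAPS supply and turnover, 3 were lower: the sulfate transporter Slc26a1 at -0.59, the Golgi PAPS transporter Slc35b2 at -0.43 and the PAPS synthase Papss2 at -0.33. Slc35b2 acts at the Golgi, whereas SULT enzymes work in the cytosol. Slc26a1 was at 250 to 349 CPM in Sedentary and 167 to 210 CPM in Exercise livers, without overlap. Papss1, the other synthase, was at 0.13 (SE 0.14), at 2.96 to 5.25 CPM over all livers, and not called.

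For glutathione, 4 of 11 genes tested were higher and 1 lower. Those that rose act before it, in the passage from methionine to cysteine: Cth at 0.58, Mat1a at 0.50 and Ahcy at 0.38, with Cbs as the fourth at 0.33 (named after its value was seen). Mat1a, which makes S-adenosylmethionine, was at 2461 to 4245 CPM in Sedentary and 3650 to 5469 CPM in Exercise livers. The enzymes that build glutathione itself were not called, with log2 fold changes of -0.15 for Gclc (SE 0.07), -0.01 for Gclm (SE 0.08) and -0.09 for Gss (SE 0.07). None of 8 tested membrane-bound and other glutathione-using enzymes was called by edgeR, DESeq2 or limma-voom, and 0 had an unadjusted edgeR p under 0.05.

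Of 11 genes tested for the mercapturate steps that follow glutathione conjugation, 2 were higher and 6 lower. The largest falls were in the Nat8 group, whose founding enzyme acetylates cysteine conjugates: Nat8f5 at -1.23, Nat8f2 at -0.96 and Nat8 at -0.90. Nat8f2 was at 717, 856 and 1303 CPM in the lowest, median and highest Sedentary liver and at 381, 458 and 533 CPM in Exercise livers. These groups did not overlap. These genes are close copies of each other, and reads could be divided between them. Among 6 tested genes listed as deconjugating enzymes and their activators, 1 was higher and 3 lower, led by the sulfatases Arsg at -0.88 and Arsa at -0.36. Whether these sulfatases act on products of SULT enzymes was not tested. Of 17 other conjugating enzymes, 1 was higher and 7 lower. Nnmt, which methylates nicotinamide, rose by a log2 fold change of 1.00 (SE 0.11, adjusted p = 6.25e-06 from edgeR's test), and Acsm5 and Mpst fell, at -0.54 and -0.34. Of 17 transporters of conjugates and organic anions, 1 was higher, Abcc5 at 0.54, and 4 were lower, among them Abcg2 at -0.19 and Slc47a1 at -0.16.

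Of 24 known regulators of phase II genes tested, 11 were higher and 4 lower. The largest changes were rises of Maff, a small partner of NRF2, at 2.27, of the coactivator Ppargc1a at 1.88 and of Cebpb at 1.34. Maff was at 1.00, 1.82 and 2.61 CPM in the lowest, median and highest Sedentary liver and at 5.38, 8.55 and 13.2 CPM in Exercise livers, without overlap. Nr1i3, which encodes CAR, fell with a log2 fold change of -0.55 (SE 0.09, adjusted p = 0.000123 from edgeR's test). The others that fell were Nr1h4 at -0.73, Dbp at -0.62 and Cebpa at -0.54. Nr1i2, which encodes PXR, and Nfe2l2, which encodes NRF2, were not called, at 0.016 (SE 0.09) and 0.0071 (SE 0.06). The genes that fell and these 2 were named after their values were seen. Over the 9 lists of the pathway, 50 of 108 genes tested were called (20 higher and 30 lower), with a median log2 fold change of -0.07. Of all genes tested, 42.4% were called, 21.1% higher and 21.3% lower.

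**Figure D5:**
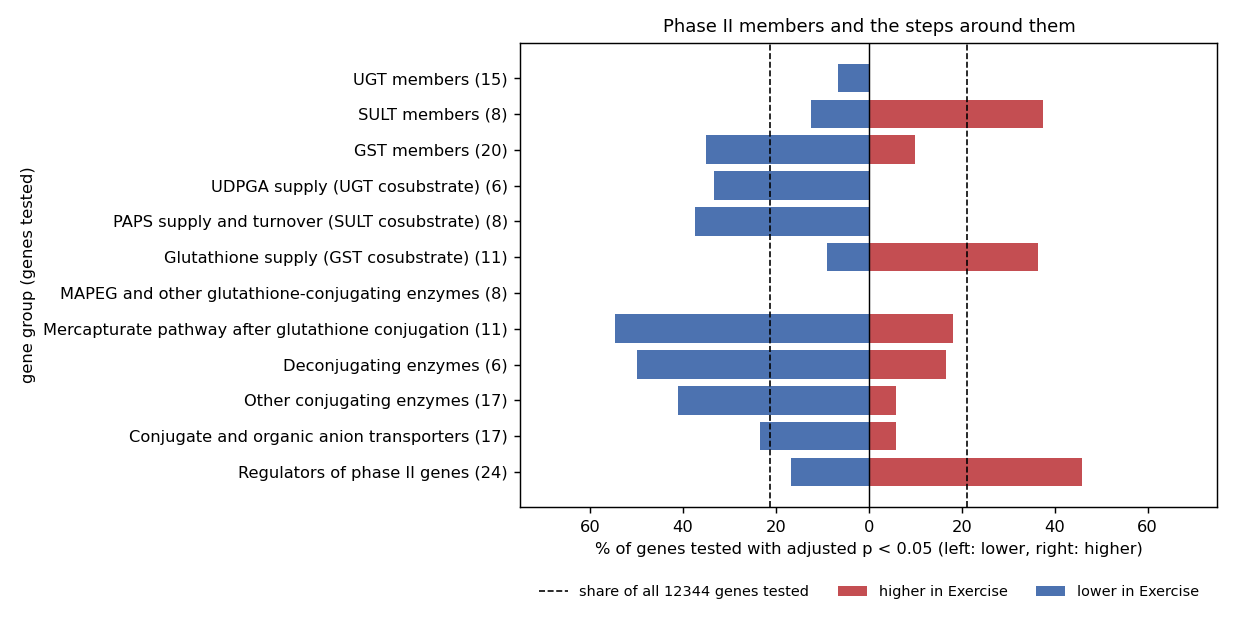
Percent of genes tested that were called higher (red, to the right) or lower (blue, to the left) in the UGT, SULT and GST families and in the 9 lists of the pathway, with dashed lines at the shares of all 12344 genes tested (21.1% higher, 21.3% lower). The number tested stands beside each name, and no gene of the membrane-bound and other glutathione-using enzymes (MAPEG) was called.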

How the data were processed

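Liver RNA of 12 mice was sequenced with a BGI mRNA kit after TRI Reagent extraction. The authors deposited, per gene and library, an estimated count that is not scaled between libraries (31.3% of the values are not whole) and an FPKM value scaled for transcript length and depth. The submitters' processing notes name Bowtie2 2.3.4.3, RSEM 1.3.1 and the mm10 build (GRCm38), and the annotation, strand use and read length are not given in the sources used here. RSEM divides reads that fit several genes by an estimate, which makes close copies uncertain.

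Groups came from the sample labels. Where no source says more of a library than its label, p-values measure the spread between these samples. Group was the only term in edgeR 4.0.16 (R 4.3.3), run on rounded estimated counts after filterByExpr (minimum count 10), with TMM scaling and robust quasi-likelihood F tests. Genes were called at a Benjamini-Hochberg adjusted p of 0.05. The SE is the absolute log2 fold change divided by the square root of the F statistic. The biological coefficient of variation was 11.3%. Single members were also compared by a two-sided exact permutation test over all 924 relabellings of the livers, on log2(CPM + 0.5) or on the share named, with Python 3.11.15. With 18745379 to 19324461 counts a library, counting error is small except for genes with few counts. Among 66 pairs of libraries none was identical, and within groups chi-square per gene was 8.01 to 45.7, above counting noise. Alternatives were RLE, upper-quartile and library-size scaling, other filters, DESeq2 1.42.0, limma-voom and limma 3.58.1 on log2(FPKM + 0.1) and log2(FPKM + 1), a threshold of 0.01, the replicate number as a block, and leaving out each liver. Leaving out Exercise replicates 1 and 3 together and the sums and shares of Ugt2a1, Ugt2a2, Gstp1 and Gstp2 were added after seeing the data.

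All members with a mean estimated count of at least 10 were described. Full values are given for members called with an absolute log2 fold change of at least 0.58 and for the 5 with the highest mean FPKM. From each list at most 3 called genes are named, besides Ugdh, Papss1, Papss2, Gclc, Gclm and Gss. Values of Sult1a1, Sult2a8, Gstt2 and Gstk1 by liver and the gene names marked so in the text were added after their values were seen. The members and gene lists, which were written by hand, were chosen with earlier results of these data known. Shared 50-base windows were counted in GENCODE vM21 transcripts, gene positions came from RefSeq on GRCm38.p6 (58 of 58 members matched by gene ID), and promoters from the same source (50 of 58 matched).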

Additional observations from a re-analysis of the deposited data

Results flagged for a closer look

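In 88 groups of 6 livers (44 members in 2 groups), the gap between an extreme liver and its nearest neighbour, divided by the range of the group, passed Dixon's 95% critical value for 6 values in 8 groups, where chance gives about 1 in 20 groups (4.4 of 88). Exercise replicate 3 was the extreme liver in 4 of them. It was highest for Sult1e1 (3.59 CPM, next 1.33, ratio 0.757), for Sult1a1 (724 CPM, next 599, ratio 0.644) and for Ugt2a1 (1.16 CPM, next 0.366, ratio 0.685), and lowest for Gstp1 (1610 CPM, next 2151, ratio 0.626). Sedentary replicate 5 was the highest liver of its group for Sult1e1 (0.761 CPM, next 0.397, ratio 0.650), for Sult2a7 (2.34 CPM, next 1.38, ratio 0.717) and for Gstz1 (820 CPM, next 740, ratio 0.676). Sedentary replicate 1 was the lowest for Gstm1 (1851 CPM, next 2277, ratio 0.785). Sult1e1 and Ugt2a1 rest on few counts, and the Ugt2a1 value also depends on how reads were divided with Ugt2a2.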

How the results depend on the processing

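None of the 14 called members changed direction under the alternatives run, and 9 of them were called in each one that tested them. The exceptions were Gstk1 (lost with library size alone and with FPKM), Sult2a8, Gstm2, Gstm6 and Gstm7. Sult1e1 was not tested where at least 10 counts were required in every liver, which left 13 members called. With library size alone or FPKM (either pseudocount), 14 members were lower instead of 9 and 4 were higher instead of 5. Over all 12344 genes tested, these settings called 3714 to 3735 lower and 1702 to 1767 higher, against 2626 and 2603 with TMM factors. At a threshold of 0.01, 5 members were lower and 5 higher, and 3 subfamily sums were called instead of 5. With 1 liver left out at a time, 12 to 15 members were called (7 to 10 lower), with 4 to 6 sums and 42 to 48 list genes against 50. Without Exercise replicates 1 and 3 together, 12 members were called, and Gstm2 and Sult2a8 were among those lost (adjusted p = 0.0609 and 0.0723 from edgeR's test). Upper-quartile scaling, limma-voom and DESeq2 called 16, 14 and 14 members. The median log2 fold change over all genes tested was -0.0028 with TMM factors and -0.098 with library size alone. It was -0.093 with log2(FPKM + 0.1) and -0.066 with log2(FPKM + 1). The cause of the shifts between settings was not tested. Few counts limit Sult1e1, Ugt2b38, Ugt1a10 and the Ugt2a1 and Ugt2a2 pair, whose spread between livers is wide.

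The replicate numbers did not pair the livers: deviations of same-numbered livers correlated between -0.099 and 0.16, and only 1 of 6 numbers was its own best match. With a replicate block, 15 members (5 higher, 10 lower) and 3 sums were called. Sult2a8 was then lost (log2 fold change -0.43, adjusted p = 0.0543 from edgeR's test), as were the Sult2 and Ugt2b sums, and Ugt3a1 and Gstp3 were gained.

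Of the 29 members tested and not called, 9 changed sign and 9 were called in at least 1 alternative, and 4 subfamily sums changed sign. With library size alone, log2(FPKM + 0.1) and log2(FPKM + 1), in that order, the reversed log2 fold changes were -0.0059, -0.0030 and -0.0030 for Ugt1a1, -0.053, -0.051 and -0.049 for Ugt1a6a, -0.022, -0.022 and -0.022 for Ugt1a6b, -0.044, -0.038 and -0.037 for Ugt3a2, -0.032, -0.037 and -0.021 for Sult2a7, -0.066, -0.070 and -0.070 for Gsta3, and -0.073, -0.061 and -0.061 for Gstp1. They were -0.082, -0.075 and -0.075 for the Ugt1a sum, -0.094, -0.085 and -0.084 for the Ugt3a sum, -0.072, -0.076 and -0.076 for the Gsta sum, and -0.073, -0.062 and -0.062 for the Gstp sum. With upper-quartile factors, Gstp1 was at -0.0033 and the Ugt1a, Ugt3a and Gstp sums at -0.0039, -0.019 and -0.0039. Without the filter beyond 1 count, the Ugt3a sum was at -0.00055. Without Exercise replicates 1 and 3, Ugt1a1 was at -0.0093, Ugt1a6a at -0.058, and the Ugt1a and Ugt3a sums at -0.039 and -0.042. With 1 liver left out, Gstp1 ranged from -0.038 to 0.15, Ugt1a6a from -0.027 to 0.10, Ugt1a10 from -0.24 to 0.027, Ugt2b38 from -0.71 to 0.083 and Sult2a7 from -0.078 to 0.25. The sums ranged from -0.035 to 0.045 for Ugt1a, -0.040 to 0.064 for Ugt3a, -0.0030 to 0.041 for Gsta and -0.042 to 0.14 for Gstp.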

Other observations

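Among the 14 members under a mean count of 10, Sult3a1, Sult2a1 and Sult2a2, which are known for female-predominant expression in mouse liver, were at most 0.151, 0.143 and 0.163 CPM in any of the 12 livers of these male mice. Hpgds, the sigma-class enzyme that also makes prostaglandin D2, did not match the symbols chosen and was too low to be tested, with 86.1 counts over all libraries. It was at 0.300 to 0.795 CPM in Sedentary and 0.0547 to 0.276 CPM in Exercise livers, without overlap, and was singled out after its values were seen.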
